A study of Danio rerio with 9 samples.

Results

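Voltage-gated calcium and sodium channel genes were followed in whole zebrafish larvae at 5 days post-fertilization (dpf). Genes were taken by symbol, as every gene of the table whose Ensembl symbol begins with cacna, cacnb, cacng or scn and a digit, which gave 64 of 32520 genes. Of these, 50 have calcium channel symbols and 14 have sodium channel symbols. The 9 libraries are 3 pools of wild-type larvae that were not microinjected (Ctrl), 3 pools microinjected with sialylated human milk oligosaccharides (SHMOs) and 3 pools microinjected with sialylated bovine milk oligosaccharides (SBMOs). The injected embryos received 4.6 nL at 100 mmol/L at 4.7 hours post-fertilization (hpf). None of these libraries is from saline-injected larvae, and a change against Ctrl therefore covers the injection as well as its content. Each library is a pool of whole larvae, so brain, eye, heart and trunk muscle were measured together. Values are TPM, an abundance scaled to transcript length and to library size, so that levels can be compared between genes.

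Voltage-gated channels open when the membrane is depolarized. Sodium channels, built from a large pore subunit (alpha) and small beta subunits, carry the fast upstroke of the action potential in neurons and muscle. Calcium channels are built around a pore subunit (alpha1), with an alpha2delta subunit and a cytoplasmic beta subunit that bring the pore to the membrane and set its gating. They release transmitter at synapses, feed the ribbon synapse of photoreceptors, and in skeletal muscle act as the voltage sensor that opens the calcium store. Part of the gamma family belongs to muscle channels, whereas the other gamma proteins are known as TARPs, which carry AMPA-type glutamate receptors to the synapse rather than form a voltage-gated channel. Many of these genes are present as a pair of copies in fish. Here 12 symbols were each shared by 2 genes, which are therefore given with their Ensembl identifiers, and whether reads were split between similar copies was not tested.

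Of the 64 genes, 57 averaged 1 TPM or more across the 9 pools and were tested. The 7 below that level were CACNA1H (ENSDARG00000099708), CACNA1I (ENSDARG00000070522), cacng3a, cacng4a, SCN10A, scn1laa and scn4aa. A gene was called at an adjusted p of at most 0.05 (limma, Benjamini-Hochberg over 19051 genes) and a log2(FC) of 0.58 or more in either direction. In SHMO-treated larvae 2 channel genes were up-regulated and 6 down-regulated, or 3.51% and 10.5% of those tested, against 3.58% and 5.32% of all genes. In SBMO-treated larvae 12 were up-regulated and 2 down-regulated, or 21.1% and 3.51%, against 8.31% and 11.5% of all genes. TARPs, which do not form a voltage-gated channel, are counted here by their symbol. They are 12 of the 50 genes with calcium channel symbols, and 10 were tested. Of the 12 genes up-regulated in SBMO, 7 were TARPs. Between the treatments, 3 channel genes were higher in SBMO and 0 were lower, against 1.83% and 2.74% of all genes. An unadjusted limma p under 0.05 in either direction was found for 9 of the 57. Over all 19051 genes, 5594 had such a p in SHMO, 7512 in SBMO and 4175 between the treatments. The 9 of 57 is a smaller share than the last, and later counts of this kind are to be read beside these totals. The median log2(FC) of the channel genes was 0.30 for SHMO, 0.47 for SBMO and 0.17 for SBMO against SHMO, beside 0.04, 0.05 and 0.02 over all genes tested. In all, 18 genes were called in at least 1 comparison and 39 in none, and both comparisons with Ctrl rest on the same 3 Ctrl pools.

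The subunits were grouped by symbol, after the tissue that they are best known for, mostly in mammals. Of the 28 tested brain subunits, 10 were up-regulated and 0 down-regulated in SBMO-treated larvae, with a median log2(FC) of 0.72, and 17 had an unadjusted p under 0.05 in either direction. In SHMO-treated larvae 1 brain subunit was up-regulated and 2 were down-regulated, with a median of 0.56. The 5 retina subunits gave 2 down-regulated genes in SHMO (median −0.55) and 1 up-regulated gene in SBMO (median 0.04), and 2 were higher in SBMO than in SHMO (median 0.75). Of the 8 tested muscle subunits, 1 was down-regulated in SHMO (median −0.21) and 0 were called in SBMO (median −0.37), where 2 had an unadjusted p under 0.05. The 16 tested subunits known from several tissues gave 1 up-regulated and 1 down-regulated gene in SHMO (median 0.22), and 1 and 2 in SBMO (median 0.39). Of all genes, 3.58% were up-regulated and 5.32% down-regulated in SHMO, 8.31% and 11.5% in SBMO, and 1.83% were higher in SBMO than in SHMO. The several-tissue shares, 6.25% and 6.25% in SHMO and 6.25% and 12.5% in SBMO, are near these and are no result about that list.

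Neuron markers moved with the brain subunits. Their 18 genes, all above 0 in every pool, summed to 983 to 1519 TPM in Ctrl, 1523 to 2166 TPM in SHMO and 1995 to 2367 TPM in SBMO. Of the 17 tested, 2 were up-regulated in SHMO, beside 3.58% of all genes (median log2(FC) 0.59). In SBMO 10 were up-regulated and 1 down-regulated, beside 8.31% and 11.5% of all genes (median 0.75). The 32 brain subunits summed to 247, 207 and 137 TPM in the Ctrl pools, 237, 335 and 307 TPM in the SHMO pools, and 339, 331 and 311 TPM in the SBMO pools. As a share of the neuron marker sum they were at 16.2%, 15.7% and 13.9% in Ctrl, 15.6%, 15.5% and 14.7% in SHMO, and 14.3%, 15.8% and 15.6% in SBMO, so these shares overlapped between the groups while the sums of SBMO lay above those of Ctrl. The part of the neuron markers in the brain subunits' changes was not tested. In bulk RNA a change in the number of cells of a type and a change in RNA per cell cannot be told apart.

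Ctrl replicate 3 stood apart within its group. The median brain subunit lay 1.02 log2 units below its mean over the 9 pools in Ctrl replicate 3 (−1.02), against −0.05 and −0.16 in the other Ctrl pools. SHMO replicate 1 was the lowest injected pool (−0.20), and the other 5 injected pools lay between 0.18 and 0.39. Leaving out Ctrl replicate 3 brought the median brain subunit to a log2(FC) of 0.26 in SHMO and 0.41 in SBMO, and 9 of the 10 brain calls in SBMO missed the threshold (adjusted p from 0.0561 to 0.124), with log2(FC) from 0.50 to 1.27 over all 10. The 10 calls fell to 1 without SBMO replicate 2 as well (adjusted p of those lost from 0.0717 to 0.142), and 8 were lost without SBMO replicate 1 (0.054 to 0.115). Over all genes, the 3772 calls in SBMO fell to 1303, 937 and 2721 without Ctrl replicate 3, SBMO replicate 2 and SBMO replicate 1.

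**Figure D1:**
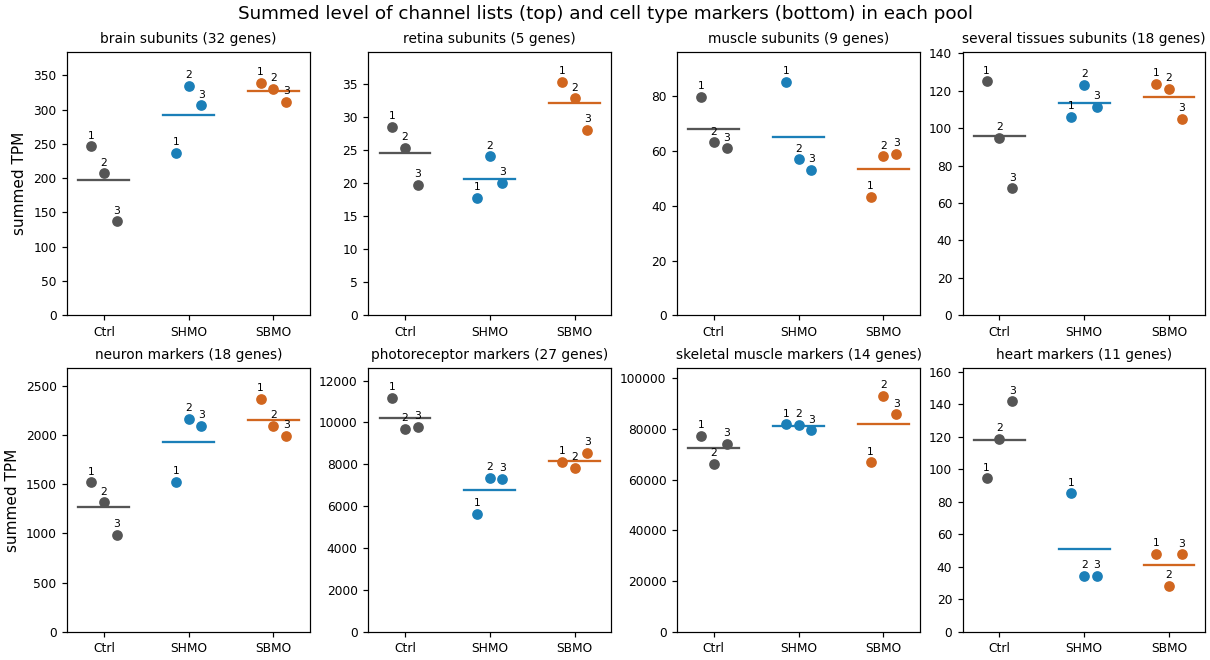
Summed TPM of the channel genes of each tissue group (top row) and of cell type markers (bottom row) in each pool, with points numbered by replicate and lines at the group means, on linear axes that start at 0. Brain subunits and neuron markers were lowest in Ctrl replicate 3 and highest in SBMO replicate 1, whereas skeletal muscle markers in SBMO ranged from below to above the SHMO pools, with all SHMO pools above all Ctrl pools. The skeletal muscle sum is mostly 2 markers, pvalb1 and pvalb2, and pvalb1 averaged 20080 TPM in Ctrl and 28280 TPM in SHMO.

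Among the presynaptic pores, the 6 genes of the P/Q, N and R types, 0 were called in any comparison by limma. Their medians were 0.56 in SHMO and 0.71 in SBMO, and 1 and 2 of them had an unadjusted p under 0.05. The most abundant was cacna1aa, a P/Q-type pore that triggers transmitter release, at 13.5, 10.7 and 5.65 TPM in Ctrl, 11, 18.1 and 15.1 TPM in SHMO, and 15.6, 16.1 and 13.8 TPM in SBMO. All SBMO pools lay above all Ctrl pools, and the log2(FC) of 0.71 ± 0.29 (SE, n = 3 pools per group) had an adjusted p of 0.097 (limma). Such separation was common. Of all 19051 genes, 3852 had every SBMO pool above every Ctrl pool and 3825 had every one below. For SHMO these were 3888 and 2544. The other copy of cacna1aa, CACNA1A, was at 6.21, 6.44 and 2.43 TPM in Ctrl, 6.12, 10.1 and 9.73 TPM in SHMO, and 9.66, 6.84 and 7.09 TPM in SBMO. Again the SBMO pools lay above Ctrl and the SHMO pools overlapped Ctrl, with log2(FC) of 0.79 ± 0.35 in SHMO and 0.76 ± 0.35 in SBMO (limma adjusted p = 0.162 and 0.133). The N-type pores CACNA1B (ENSDARG00000021735 and ENSDARG00000079295) and the R-type pores CACNA1E and cacna1eb were at lower levels, from 0.71 to 6.25 TPM, with log2(FC) from 0.11 to 0.72 against Ctrl.

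The L-type pores CACNA1C, known from heart, smooth muscle and neurons, and cacna1da and cacna1db, known from hair cells, neurons and endocrine cells, gave 0 calls by limma, although 2 in SHMO and all 3 in SBMO had an unadjusted p under 0.05. CACNA1C was at 5.96, 3.99 and 2.16 TPM in Ctrl, 4.68, 6.49 and 5.91 TPM in SHMO, and 6.69, 6.4 and 5.44 TPM in SBMO. Its groups overlapped. cacna1da was at 5.26, 4.15 and 2.6 TPM in Ctrl, 4.6, 7.28 and 7.29 TPM in SHMO, and 6.8, 7.14 and 5.75 TPM in SBMO. The SBMO pools lay above Ctrl, with a log2(FC) of 0.77 ± 0.26 and a limma adjusted p of 0.0599. For cacna1db the log2(FC) was 1.08 ± 0.39 in SBMO (limma adjusted p = 0.069), with 1.22 to 3.83 TPM in Ctrl and 3.47 to 6.26 TPM in SBMO.

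T-type pores open at low voltage and shape rhythmic firing. CACNA1G was at 1.94, 1.7 and 1.24 TPM in Ctrl, 2.46, 3.23 and 3.36 TPM in SHMO, and 3.1, 2.82 and 2.9 TPM in SBMO. Every injected pool lay above every Ctrl pool, and CACNA1G was up-regulated in both treatments, by 0.80 ± 0.21 in SHMO (limma adjusted p = 0.0422) and 0.85 ± 0.21 in SBMO (0.0216). The SHMO call was lost without any 1 of the 3 Ctrl pools (adjusted p from 0.0736 to 0.0988), SHMO replicate 2 (0.148) or 3 (0.166), or SBMO replicate 2 (0.0596) or 3 (0.0579), and the SBMO call without Ctrl replicate 3 (0.0589) or SBMO replicate 2 (0.0724). The more abundant cacna1ha was at 3.79, 3.48 and 1.98 TPM in Ctrl, 3.3, 6.12 and 6.19 TPM in SHMO, and 5.43, 5 and 4.48 TPM in SBMO. It lay above Ctrl in all SBMO pools, but it was not called (log2(FC) 0.67 ± 0.29 and 0.74 ± 0.29, limma adjusted p = 0.159 and 0.0894). The brain T-type pore cacna1ib was between 0.63 and 1.48 TPM, and the untested CACNA1H and CACNA1I were between 0.19 and 0.65 TPM.

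The TARPs gave the most calls of any subunit class. In SBMO-treated larvae 7 of 10 tested were up-regulated and 0 down-regulated, with a median log2(FC) of 0.86, beside 8.31% of all genes up-regulated. In SHMO-treated larvae 0 were up-regulated and 1 was down-regulated, with a median of 0.69, and 7 had an unadjusted p under 0.05 in either direction. The difference between the treatments was called for 1 of the 10, CACNG5 (ENSDARG00000003326), and for the other 9 it lay between −0.23 (CACNG4) and 0.38 (CACNG8 ENSDARG00000020450), where the 95% interval of the latter ran from −0.22 to 0.98.

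CACNG8 (ENSDARG00000070626), in mammals a TARP of the hippocampus and forebrain, was the most abundant, at 15.2, 12.2 and 8.35 TPM in Ctrl, 16.2, 24.7 and 23.2 TPM in SHMO, and 22.7, 23.8 and 20.9 TPM in SBMO. Every injected pool was above every Ctrl pool, and the log2(FC) was 0.97 ± 0.23 in SBMO (limma adjusted p = 0.0189) and 0.79 ± 0.23 in SHMO (0.0548). Its copy ENSDARG00000020450 was at 10.6, 9.42 and 5.39 TPM in Ctrl, 10.7, 16.6 and 17.2 TPM in SHMO, and 21.4, 17.7 and 14.9 TPM in SBMO. The lowest SHMO pool was barely above the highest Ctrl pool, and the log2(FC) in SBMO was 1.14 ± 0.27 (limma adjusted p = 0.02).

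CACNG2, known as stargazin from the mouse mutant in which TARPs were found, was expressed from both copies. ENSDARG00000102376 was at 13.9, 12 and 9.99 TPM in Ctrl, 12.3, 20 and 19.7 TPM in SHMO, and 24.5, 20.3 and 17.8 TPM in SBMO. ENSDARG00000032565 was at 10.9, 11 and 5.96 TPM in Ctrl, 12.2, 17.5 and 18 TPM in SHMO, and 19.1, 15.8 and 17.8 TPM in SBMO. For both copies the SBMO pools lay above all Ctrl pools, with log2(FC) of 0.82 ± 0.22 and 0.98 ± 0.24 (limma adjusted p = 0.0273 and 0.0229).

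CACNG3 (ENSDARG00000076401) was at 7.59, 7.28 and 3.31 TPM in Ctrl, 7.71, 14.3 and 14 TPM in SHMO, and 12.8, 12.2 and 12.2 TPM in SBMO. All injected pools lay above Ctrl, and the log2(FC) in SBMO was 1.13 ± 0.32 (limma adjusted p = 0.0344). CACNG7 (ENSDARG00000070624) was at 3.94, 3.65 and 2.1 TPM in Ctrl, 4.08, 5.99 and 6.97 TPM in SHMO, and 7.21, 5.07 and 5.26 TPM in SBMO. All injected pools lay above Ctrl, narrowly in SHMO replicate 1, and it was up-regulated in SBMO by 0.88 ± 0.27 (limma adjusted p = 0.0416), and its copy ENSDARG00000063006 had a log2(FC) of 0.84 ± 0.28 there with an adjusted p of 0.0545. CACNG4, at 0.82 to 2.01 TPM, and the second CACNG5 copy ENSDARG00000039240, at 0.83 to 1.78 TPM, were not called in any comparison.

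CACNG5 (ENSDARG00000003326), of the same TARP class as CACNG7, was the only TARP called between the treatments. It was at 6.32, 5.96 and 6.12 TPM in Ctrl, 3.16, 3.23 and 3.83 TPM in SHMO, and 13.1, 12.7 and 6.99 TPM in SBMO. The 3 groups did not overlap. CACNG5 was down-regulated in SHMO (log2(FC) −0.90 ± 0.24, limma adjusted p = 0.0434), up-regulated in SBMO (0.78 ± 0.24, 0.0411), and higher in SBMO than in SHMO (1.68 ± 0.24, 0.00652). The difference between the treatments was still called when any 1 pool was left out, but it missed the threshold when only those 2 groups entered the model (adjusted p = 0.0781). The SHMO call was lost on leaving out any 1 Ctrl or SHMO pool (adjusted p from 0.07 to 0.145). Relative to the neuron marker sum it was at 0.416% to 0.623% in Ctrl, 0.149% to 0.208% in SHMO, and 0.35% to 0.603% in SBMO. The SHMO pools thus lay below the rest on this scale also, whereas SBMO overlapped Ctrl and was not higher.

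The 7 TARP calls in SBMO depended on single pools. All 7 were lost without Ctrl replicate 3 (adjusted p from 0.0561 to 0.124) and without SBMO replicate 2 (0.0717 to 0.142), and 6 without SBMO replicate 1 (0.054 to 0.115), while their log2(FC) stayed between 0.62 and 0.85 without Ctrl replicate 3. Without Ctrl replicate 1, 4 were lost (0.0561 to 0.098), and without Ctrl replicate 2, 3 were lost (0.0565 to 0.0868), with 2 lost without each of SBMO replicate 3 (0.0582 to 0.0604), SHMO replicate 2 (0.0589 to 0.0597) and SHMO replicate 3 (0.0507 to 0.0575). Calls over all genes fell as well, but by a smaller share. The 3772 calls in SBMO became 1303 without Ctrl replicate 3, 937 without SBMO replicate 2 and 2721 without SBMO replicate 1. These totals also hold calls gained. TARPs took 4.63% to 5.12% of the neuron marker sum in Ctrl, 4.78% to 5.28% in SHMO and 5.18% to 5.52% in SBMO.

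**Figure D2:**
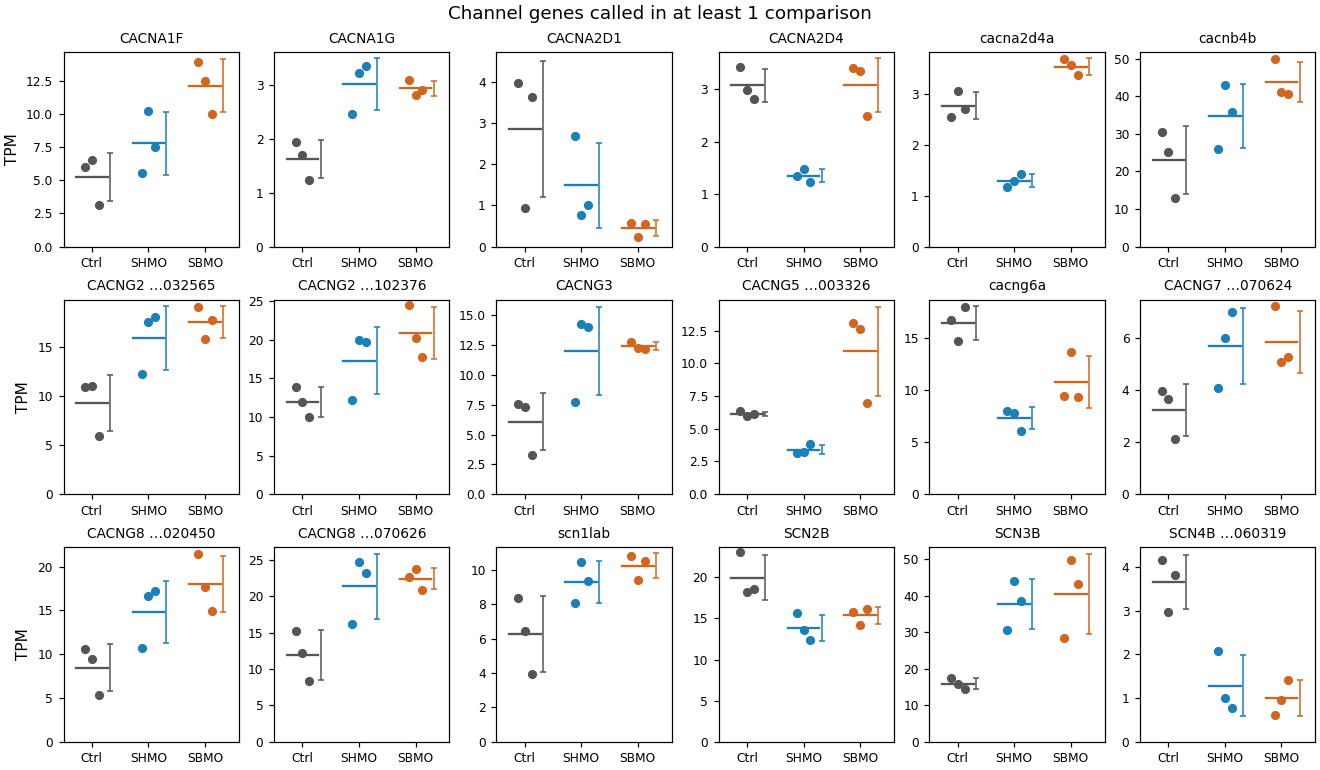
TPM of the 18 channel genes called in at least 1 comparison, 1 point per pool (replicates 1 to 3 from left to right), with a line at the group mean and a bar of 1 SD, on axes that start at 0. CACNG5 ENSDARG00000003326 and the pair CACNA2D4 and cacna2d4a were lowest in SHMO and near or above the Ctrl level in SBMO, whereas SCN3B was higher in all injected pools.

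The retina subunits were at lower levels than the brain subunits in sum, with 19.8 to 28.5 TPM in Ctrl, 17.8 to 24.1 TPM in SHMO and 28.1 to 35.4 TPM in SBMO. CACNA1F is the L-type pore of the photoreceptor ribbon synapse, and CACNA2D4 is its alpha2delta partner there. CACNA1F was at 6.01, 6.56 and 3.14 TPM in Ctrl, 5.56, 10.3 and 7.53 TPM in SHMO, and 13.9, 12.5 and 10 TPM in SBMO. It was up-regulated in SBMO by 1.27 ± 0.30 (limma adjusted p = 0.0196), a call that was lost without Ctrl replicate 3 (0.0603), SBMO replicate 1 (0.0513) or SBMO replicate 2 (0.0763). Its copy cacna1fa was at 4.41, 2.65 and 1.43 TPM in Ctrl, 2.16, 1.72 and 1.58 TPM in SHMO, and 2.97, 2.08 and 2.48 TPM in SBMO. These groups overlapped. CACNA1F made up 57.7% to 71.2% of the pair in Ctrl, 72% to 85.6% in SHMO and 80.2% to 85.7% in SBMO.

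The alpha2delta genes of the retina split by treatment. CACNA2D4 (ENSDARG00000026855) was at 3.43, 2.99 and 2.81 TPM in Ctrl, 1.35, 1.48 and 1.23 TPM in SHMO, and 3.4, 3.36 and 2.49 TPM in SBMO. It was down-regulated in SHMO (log2(FC) −1.19 ± 0.20, limma adjusted p = 0.00781), was near Ctrl in SBMO (0.01 ± 0.20, 0.972), and was higher in SBMO than in SHMO (1.20 ± 0.20, 0.0109). The gene named cacna2d4a was at 2.56, 3.06 and 2.71 TPM in Ctrl, 1.17, 1.29 and 1.43 TPM in SHMO, and 3.69, 3.57 and 3.37 TPM in SBMO. Its 3 groups did not overlap, with a log2(FC) of −1.11 ± 0.19 in SHMO (limma adjusted p = 0.0094), 0.36 ± 0.19 in SBMO (0.184) and 1.47 ± 0.19 between the treatments (0.00466). Both SHMO calls remained when any 1 pool was left out, and so did the difference between treatments for cacna2d4a, whereas that for CACNA2D4 was lost without SBMO replicate 2 (adjusted p = 0.0648) and with only the 2 groups in the model. RefSeq lists only cacna2d4a and cacna2d4b in zebrafish (assembly GRCz12tu), where the table has 3 identifiers, so the split of reads between CACNA2D4 and cacna2d4a is uncertain and they may not be independent.

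The third and most abundant, cacna2d4b, was at 12.1, 10.1 and 9.67 TPM in Ctrl, 7.55, 9.32 and 8.29 TPM in SHMO, and 11.3, 11.3 and 9.74 TPM in SBMO. Every SHMO pool lay below every Ctrl and SBMO pool, but the difference was not called (log2(FC) −0.40 ± 0.15, limma adjusted p = 0.106). Photoreceptor markers, 27 genes all above 0 in every pool, summed to 9692 to 11165 TPM in Ctrl, 5644 to 7364 TPM in SHMO and 7843 to 8540 TPM in SBMO. Of these, 1 was up-regulated and 6 down-regulated in SHMO, beside 3.58% and 5.32% of all genes. In SBMO the counts were 4 and 5, beside 8.31% and 11.5% of all genes. CACNA2D4 and cacna2d4a together were at 0.0537% to 0.0624% of that sum in Ctrl, 0.0364% to 0.0446% in SHMO and 0.0686% to 0.0884% in SBMO. Much of the change in that sum came from the marker pde6ha, with a mean of 3730 TPM in Ctrl, 902 TPM in SHMO and 1505 TPM in SBMO. Without pde6ha the share was 0.0823% to 0.101% in Ctrl, 0.0424% to 0.0511% in SHMO and 0.0874% to 0.11% in SBMO. The SHMO pools thus lay below all others with and without pde6ha, whereas Ctrl and SBMO overlapped without it, and the part of the photoreceptor markers in the change of both genes was not tested.

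Of the 8 tested muscle subunits, 1 was down-regulated in SHMO, beside 5.32% of all genes. None was called in SBMO, where 8.31% of all genes were up-regulated and 11.5% down-regulated. With 8 genes these counts are no result about the list. In skeletal muscle CACNA1S is the voltage sensor, CACNB1 its beta subunit, and CACNG1 and CACNG6 its gamma subunits, while scn4aa and scn4ab carry the muscle action potential. CACNA1S (ENSDARG00000042552) was at 20.7, 14.9 and 10.1 TPM in Ctrl, 19.4, 10.1 and 9.88 TPM in SHMO, and 7.11, 11.4 and 11.7 TPM in SBMO. Its groups overlapped, and the log2(FC) was −0.29 ± 0.33 in SHMO and −0.55 ± 0.33 in SBMO (limma adjusted p = 0.569 and 0.228). The copy ENSDARG00000029457 was at 2.88, 2.21 and 1.99 TPM in Ctrl, 2.91, 1.95 and 1.79 TPM in SHMO, and 1.2, 1.58 and 1.38 TPM in SBMO. Here every SBMO pool lay below every Ctrl pool, with a log2(FC) of −0.70 ± 0.24 and a limma adjusted p of 0.0626.

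CACNB1 was at 15.2, 13.1 and 8.42 TPM in Ctrl, 15.9, 15.1 and 12.2 TPM in SHMO, and 11.2, 10.9 and 13.9 TPM in SBMO. Its groups overlapped (log2(FC) 0.20 ± 0.21 and 0.03 ± 0.21, limma adjusted p = 0.546 and 0.937). The sodium pore scn4ab ranged from 4.91 to 6.07 TPM in Ctrl, 3.56 to 7.9 TPM in SHMO and 2.32 to 4.1 TPM in SBMO, with a log2(FC) of −0.68 ± 0.31 in SBMO (limma adjusted p = 0.133), and scn4aa did not exceed 0.65 TPM in any pool.

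The gamma subunit cacng6a was the called muscle gene. It was at 16.7, 14.7 and 17.9 TPM in Ctrl, 8.02, 7.77 and 6.08 TPM in SHMO, and 9.37, 13.6 and 9.31 TPM in SBMO. All injected pools lay below all Ctrl pools, and cacng6a was down-regulated in SHMO (log2(FC) −1.23 ± 0.20, limma adjusted p = 0.00772), which was still called when any 1 pool was left out. In SBMO the log2(FC) was −0.60 ± 0.20 with an adjusted p of 0.0554. The copy cacng6b was at 9.15, 4.16 and 5.83 TPM in Ctrl, 15.4, 9.14 and 8.38 TPM in SHMO, and 3.57, 6.38 and 6.22 TPM in SBMO, and was not called (0.73 ± 0.32 in SHMO, limma adjusted p = 0.167). Of the sum of the pair, cacng6a made up 64.6% to 77.9% in Ctrl, 34.3% to 45.9% in SHMO and 59.9% to 72.4% in SBMO, so SHMO was the group in which cacng6b was the more abundant copy.

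CACNG1 (ENSDARG00000008772) was at 7.4, 7.31 and 9.98 TPM in Ctrl, 14.7, 8 and 9.85 TPM in SHMO, and 5.92, 8.83 and 10.5 TPM in SBMO. Its groups overlapped, and its copy ENSDARG00000052360 was between 0.45 and 2.22 TPM. Skeletal muscle markers, 14 genes, summed to 66134 to 77206 TPM in Ctrl, 79329 to 81727 TPM in SHMO and 66718 to 93046 TPM in SBMO, and limma called 0 of them in any comparison (3, 5 and 0 had an unadjusted p under 0.05). The 9 muscle subunits were at 0.0823% to 0.103% of that sum in Ctrl, 0.067% to 0.104% in SHMO and 0.0625% to 0.0688% in SBMO. On this scale the SBMO pools lay below the Ctrl pools and the SHMO pools spanned the range of Ctrl. The marker sum averaged 72480 TPM in Ctrl, 80910 TPM in SHMO and 81810 TPM in SBMO. Most of it was pvalb1 (means of 20080, 28280 and 28410 TPM) and pvalb2 (30540, 31130 and 31310 TPM). Shares of a sum without pvalb1 were not computed.

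Of the proteins that work beside the muscle channel at the triad, the junction between surface membrane and calcium store, 14 genes were tested. In SBMO-treated larvae 2 were down-regulated and 0 up-regulated, with a median log2(FC) of −0.33, and 14.3% down-regulated is near the 11.5% of all genes. These were JPH1 (ENSDARG00000058603), a junctophilin that ties the membranes together (−1.62 ± 0.28, limma adjusted p = 0.00783), and trdn, encoding triadin of the calcium release complex (−1.03 ± 0.33, 0.0481). This JPH1 gene averaged 5.22 TPM over the 9 pools. The more abundant JPH1 gene ENSDARG00000038826 (43.4 TPM) and JPH2 (45.7 TPM) were not called in SBMO (−0.28 ± 0.17 and −0.26 ± 0.26, limma adjusted p = 0.224 and 0.48). In SHMO-treated larvae 0 were called, with a median of −0.08, and 1 had an unadjusted p under 0.05.

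**Figure D3:**
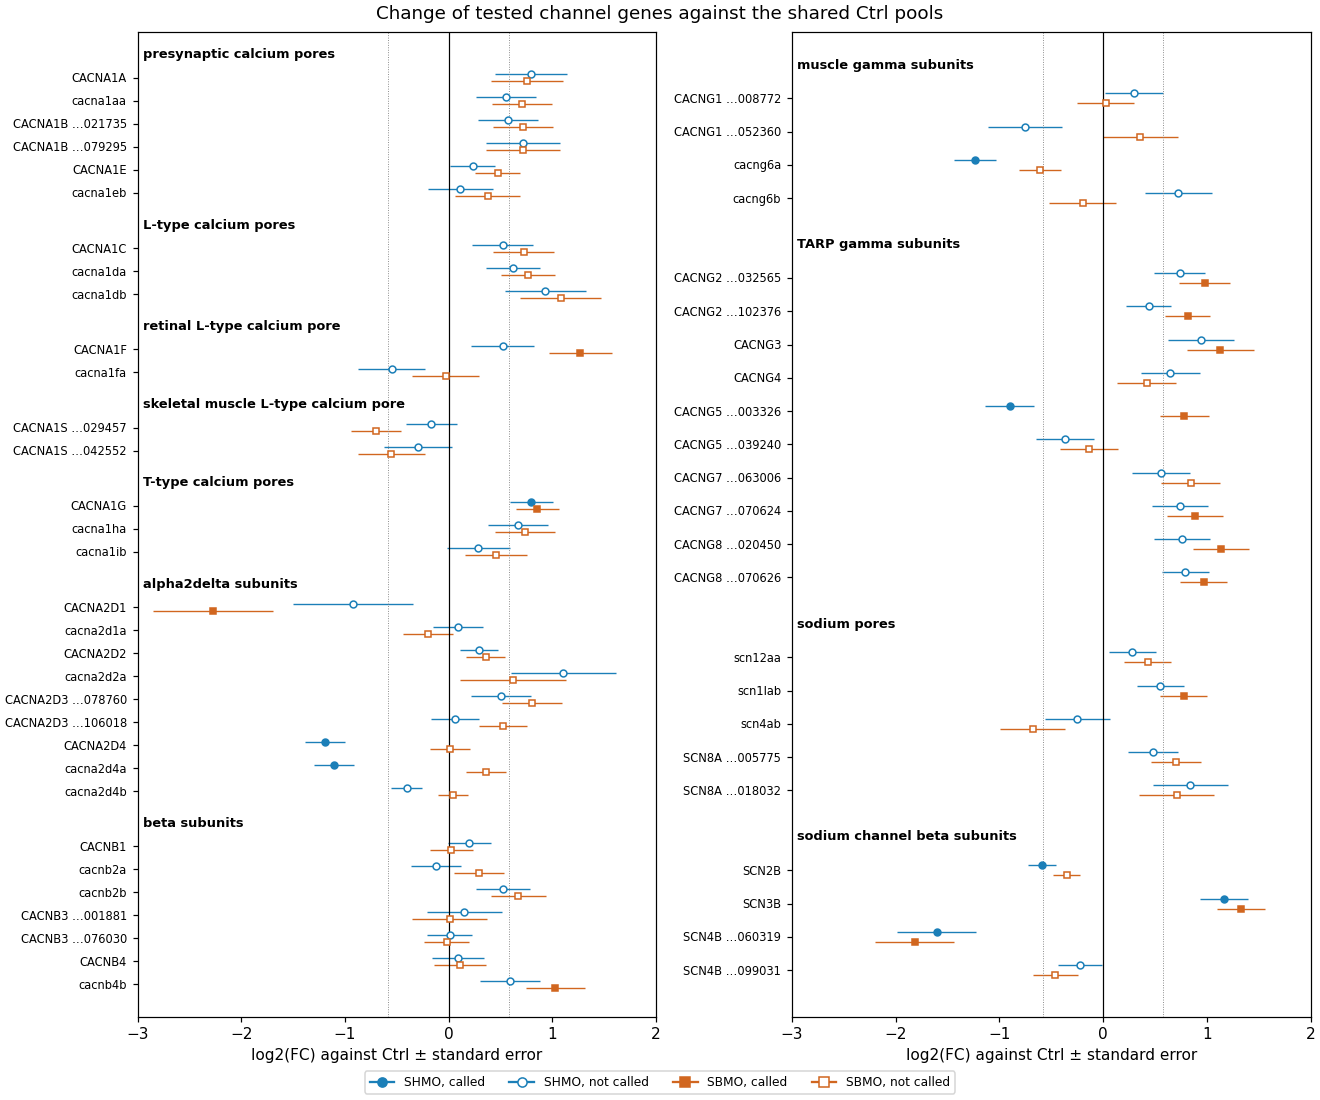
Log2(FC) against Ctrl, with its standard error, of tested channel genes in order of subunit class, for SHMO (circles) and SBMO (squares). Filled symbols mark called genes, dotted lines mark a log2(FC) of 0.58 in either direction, and both treatments are compared with the same 3 Ctrl pools. TARPs lie to the right of 0 in SBMO except for CACNG5 ENSDARG00000039240, and SCN4B ENSDARG00000060319 and CACNA2D1 lie farthest to the left.

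Among the other alpha2delta and beta subunits, 2 genes were called, both in SBMO. CACNA2D1, an alpha2delta of muscle, heart and neurons, was at 3.99, 0.95 and 3.65 TPM in Ctrl, 2.69, 0.78 and 1 TPM in SHMO, and 0.58, 0.22 and 0.54 TPM in SBMO. The SBMO pools lay below all others, and the log2(FC) was −2.27 ± 0.58 (limma adjusted p = 0.0243), lost without Ctrl replicate 1 (0.072) or 3 (0.0879), without SBMO replicate 2 (0.0886) and under quantile normalization (0.0518). Heart markers, 11 genes, were also lower in the injected pools. They summed to 94.5, 119 and 142 TPM in Ctrl, 34.2 to 85.2 TPM in SHMO and 28.2 to 48 TPM in SBMO. Within Ctrl their sum was lowest in replicate 1 and CACNA2D1 in replicate 2, whereas in SHMO both were highest in replicate 1. With 3 pools per group, these orders cannot show whether the 2 go together. Of the 8 heart genes tested, 2 were down-regulated in SHMO and 4 in SBMO, beside 5.32% and 11.5% of all genes. TNNI1, nppb and myh6 were listed at 0 in some pools. The part of the heart markers in the change of CACNA2D1 was not tested. The copy cacna2d1a was between 6.1 and 12.9 TPM with overlapping groups.

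The beta subunit cacnb4b, whose mammalian counterpart is the main beta of the cerebellum, had the highest mean TPM of the brain group in SBMO. It was at 30.6, 25.3 and 13 TPM in Ctrl, 26, 42.9 and 35.8 TPM in SHMO, and 50, 41.2 and 40.5 TPM in SBMO. All SBMO pools lay above Ctrl, and cacnb4b was up-regulated by 1.03 ± 0.29 (limma adjusted p = 0.0318), a call lost without Ctrl replicate 3 (0.0712), SBMO replicate 1 (0.0801) or SBMO replicate 2 (0.0941). It made up 37.2% to 42.4% of all beta subunit TPM in Ctrl, 40.9% to 51.7% in SHMO and 51.2% to 58.9% in SBMO. The remaining cacnb2a, cacnb2b, both CACNB3 genes and CACNB4 were between 0.9 and 10.2 TPM and were not called. Of the brain alpha2delta genes, CACNA2D2 was at 9.6, 7.13 and 5.42 TPM in Ctrl, 8.23, 10.3 and 9.31 TPM in SHMO, and 8.89, 9.1 and 9.36 TPM in SBMO, and overlapped between groups. cacna2d2a and both CACNA2D3 genes were between 1.17 and 12.8 TPM and were not called.

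Sodium channel pores were dominated by SCN8A (ENSDARG00000005775), the main pore of the axon initial segment and nodes of Ranvier, with 46.7% to 56.9% of the TPM of the 8 pores in each pool. It was at 25.6, 20.5 and 11.5 TPM in Ctrl, 24.2, 28.9 and 27.1 TPM in SHMO, and 30.9, 29.6 and 27.6 TPM in SBMO. The SBMO pools lay above Ctrl, but the log2(FC) of 0.70 ± 0.24 was not called (limma adjusted p = 0.0592). scn1lab, a pore whose loss causes seizures in zebrafish larvae, was at 8.39, 6.47 and 3.97 TPM in Ctrl, 8.08, 10.5 and 9.36 TPM in SHMO, and 10.8, 9.44 and 10.6 TPM in SBMO. It was up-regulated in SBMO by 0.78 ± 0.23 (limma adjusted p = 0.0358). That call was lost without Ctrl replicate 2 (0.0585) or 3 (0.0672), SHMO replicate 3 (0.0562) or any 1 SBMO pool (0.0698 to 0.0967), and without Ctrl replicate 3 the log2(FC) was 0.50. The second SCN8A gene ENSDARG00000018032 and scn12aa were at 1.1 to 9.15 TPM and were not called, and SCN10A and scn1laa, not tested, did not exceed 1 TPM.

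Sodium channel beta subunits moved in opposite directions. SCN3B was at 17.3, 15.9 and 14.3 TPM in Ctrl, 30.6, 43.9 and 38.7 TPM in SHMO, and 28.5, 49.8 and 43.3 TPM in SBMO. The lowest injected pool was above the highest Ctrl pool, and SCN3B was up-regulated by 1.17 ± 0.23 in SHMO (limma adjusted p = 0.0172) and 1.33 ± 0.23 in SBMO (0.00826). The SBMO call remained when any 1 pool was left out, whereas the SHMO call was lost on leaving out any 1 Ctrl pool (0.054 to 0.0604) and without SHMO replicate 2 (0.0779) or 3 (0.077). Between the treatments the difference was 0.17, with a 95% interval from −0.35 to 0.68 (limma, 10.14 degrees of freedom). SCN3B rose from 16.6% to 21.1% of the sodium beta TPM in Ctrl to 31.5% to 37.1% in SHMO and 26.2% to 39.2% in SBMO.

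SCN2B, which in mammals is bound to the neuronal pore by a disulfide bond, was at 23.1, 18.3 and 18.5 TPM in Ctrl, 15.6, 13.6 and 12.4 TPM in SHMO, and 15.8, 14.2 and 16.1 TPM in SBMO. All injected pools lay below Ctrl, and SCN2B was down-regulated in SHMO (log2(FC) −0.59 ± 0.13, limma adjusted p = 0.025), with −0.35 ± 0.13 in SBMO (0.0776). The SHMO call was lost without Ctrl replicate 1 (0.0752) or 2 (0.0686) and without SHMO replicate 2 (0.1) or 3 (0.118). Per neuron marker sum, SCN2B was at 1.39% to 1.89% in Ctrl, 0.594% to 1.03% in SHMO and 0.67% to 0.808% in SBMO, while SCN3B was at 1.14% to 1.46% in Ctrl, 1.85% to 2.03% in SHMO and 1.2% to 2.38% in SBMO. SCN2B thus lay below Ctrl in every injected pool on both scales, and SCN3B lay above Ctrl in all SHMO pools on both.

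SCN4B (ENSDARG00000060319), a beta subunit of heart, muscle and neurons in mammals, was at 4.16, 2.96 and 3.82 TPM in Ctrl, 2.08, 1 and 0.76 TPM in SHMO, and 0.6, 0.96 and 1.42 TPM in SBMO. All injected pools lay below Ctrl, and it was down-regulated by 1.61 ± 0.38 on the log2 scale in SHMO (−1.61, limma adjusted p = 0.0299) and by 1.82 ± 0.38 in SBMO (−1.82, 0.0138). The SHMO call was lost without any 1 Ctrl pool (0.0742 to 0.0923) and without SHMO replicate 2 (0.114) or 3 (0.122), and the SBMO call without Ctrl replicate 3 (0.0516) or SBMO replicate 2 (0.0502). The heart marker sums given above were also lower in every injected pool than in every Ctrl pool, and their part here was not tested. The copy ENSDARG00000099031 was at 4.59 to 6.8 TPM in Ctrl, 3.66 to 6.46 TPM in SHMO and 3.42 to 4.51 TPM in SBMO, and was not called (−0.22 ± 0.22 and −0.46 ± 0.22).

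Genes that place these channels at the synapse and at the axon initial segment were compared as background for the brain subunits. Of 16 active zone genes tested, 0 were called in SHMO (4 had an unadjusted p under 0.05), with a median of 0.46. In SBMO 4 were up-regulated, beside 8.31% of all genes, with a median of 0.61. These included unc13ba, a vesicle priming factor (log2(FC) 0.98 ± 0.25, limma adjusted p = 0.0244), rims2a, a scaffold that tethers calcium channels (0.74 ± 0.19, 0.0266), and RIMBP2 (ENSDARG00000001154), which links such scaffolds to the channel (1.00 ± 0.29, 0.0357). The more abundant RIMBP2 gene ENSDARG00000104101 was not called (0.54 ± 0.27, limma adjusted p = 0.158). Of 17 genes of the initial segment and of sodium channel partners, 0 were called in SHMO (3 had an unadjusted p under 0.05), with a median of 0.40. In SBMO 5 were up-regulated, beside the same 8.31% of all genes, with a median of 0.65. Among them FGF13 (ENSDARG00000035056) and FGF12 (ENSDARG00000027957), which bind the tail of sodium pores, rose by 0.66 ± 0.16 and 0.65 ± 0.17 (limma adjusted p = 0.0221 and 0.0267), and the ankyrin ank2b by 1.00 ± 0.27 (0.0272). The other genes of these 2 symbols, FGF13 ENSDARG00000056633 and FGF12 ENSDARG00000113525, were not called (0.54 ± 0.20 and 0.21 ± 0.19, limma adjusted p = 0.0708 and 0.428).

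**Figure D4:**
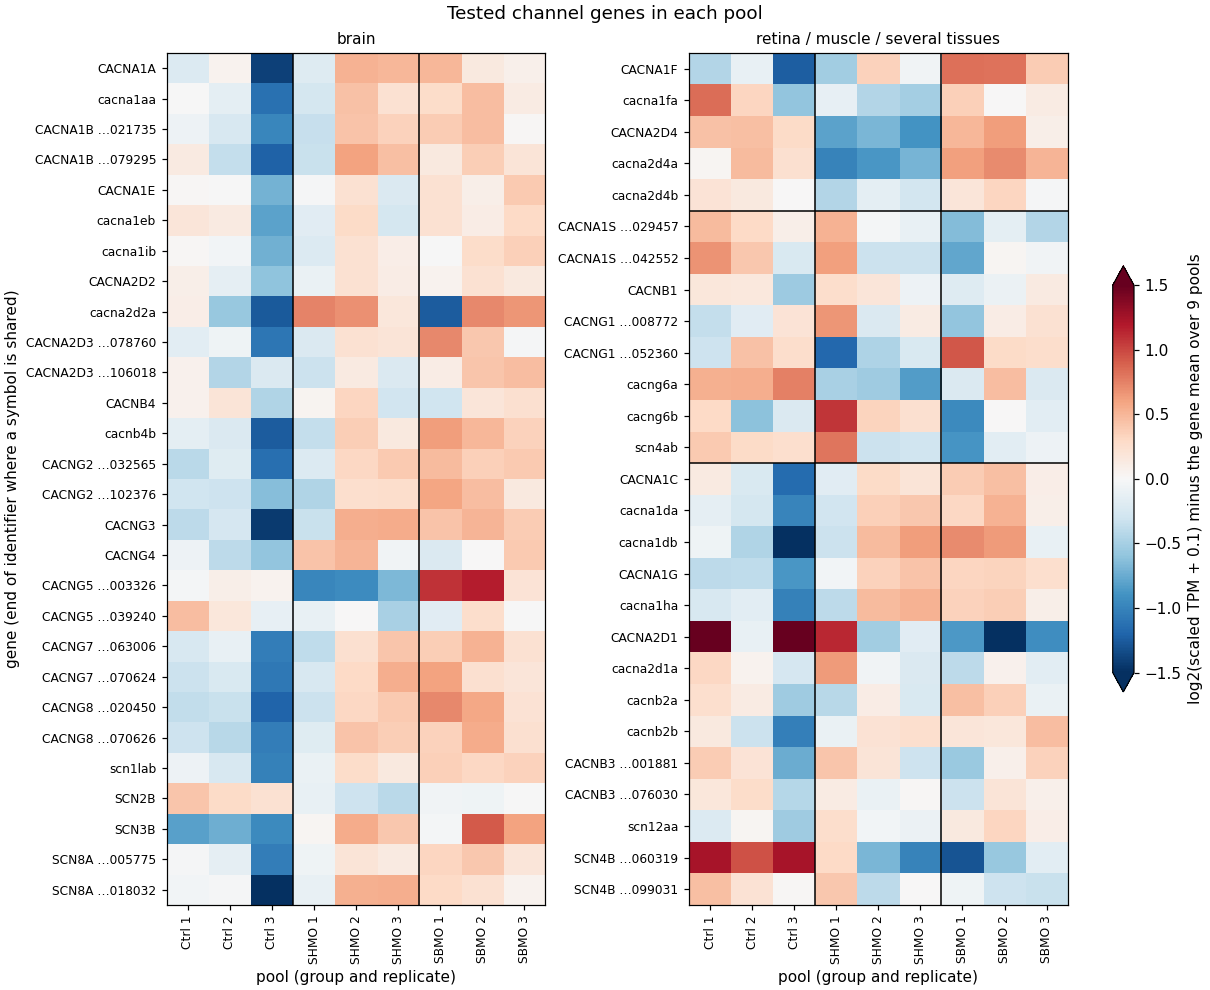
Level of tested channel genes in each pool as log2(scaled TPM + 0.1) minus the mean of that gene over the 9 pools (red above, blue below, colours limited to 1.5 in either direction), with lines between groups of pools and between tissue groups. The column of Ctrl replicate 3 is blue for nearly all brain subunits, and SCN2B and CACNG5 ENSDARG00000003326 are brain genes without that dip.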

How the data were processed

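RNA from 9 pools was sequenced, 3 per group, labelled as separate biological replicates. The authors aligned reads to GRCz11 with STAR, RSEM is named in the submitters' processing notes, and the deposited values are TPM per Ensembl gene, which keep no depth, so depth and counting error are unknown here. The annotation release is not given in the sources used here. Symbols came from a table of Ensembl names that matched 29201 of 32520 genes. The study's own test ran on read counts, which were not used here, so limma 3.58.1 in R 4.3.3 was run on TPM.

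Libraries were scaled by median ratios (factors 0.93 to 1.08), 0.1 was added and log2 taken, so fold changes of low genes are understated. Genes averaging 1 TPM or more (19051 of 27442 above 0) entered a single model of 3 groups (lmFit, eBayes with trend, prior 4.14 degrees of freedom, two-sided). The fit was run on simulated data with independent normal noise for each gene. The simulation held no shift of a whole pool, so it cannot show how the fit handles a pool like Ctrl replicate 3. Every called gene, and the 2 genes of highest mean in each subunit class, are given with all pools. The genes, lists and tests were chosen with earlier results of these data known. Partner and marker lists matched symbols with or without a final copy letter, a rule chosen after the name table was seen. Alternatives were other added values, filters, scalings, variance priors and thresholds, only the 2 groups compared, a replicate block, and each pool left out. A marker sum without pde6ha was added after the values were seen. Figures used Python 3.11.15 and matplotlib 3.10.9. No sequences are shown, as no sequence was used here. Some genes are counted in the totals but not reported here.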

Additional observations from a re-analysis of the deposited data

Results flagged for a closer look

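The effects of the treatments differed for 3 channel genes, by the limma test of SBMO against SHMO. CACNG5 (ENSDARG00000003326) was 1.68 higher in SBMO on the log2 scale, with all SHMO pools below and all SBMO pools above the Ctrl pools. SBMO replicate 3, at 6.99 TPM, was close to the highest Ctrl pool at 6.32 TPM. Relative to the neuron marker sum, SBMO overlapped Ctrl. CACNA2D4 (ENSDARG00000026855) was 1.20 higher, and cacna2d4a (ENSDARG00000103810) was 1.47 higher.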

How the results depend on the processing

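No direction of a called gene turned under any alternative run. Of 515 values of called genes recomputed, 381 kept their side of the threshold and 134 missed it, of which 25 under the treat test, 7 under the replicate block, 6 with only the 2 groups, 5 without the filter, and 3 each with 1 TPM added, without further scaling and without the trend in the prior. Most of the rest were lost with 1 pool left out, from 1 (without SHMO replicate 1) to 17 (without Ctrl replicate 3). Without SBMO replicate 2, 15 were lost. In SHMO against Ctrl, the 8 calls became 5 with 1 TPM added, 4 with a mean of at least 5 TPM, and 4 with the replicate block, and ranged from 3 to 14 with 1 pool left out, with 14 without SHMO replicate 1 (9 higher and 5 lower) 4 without Ctrl replicate 3, and 3 without each of Ctrl replicates 1 and 2 and SHMO replicates 2 and 3. In SBMO against Ctrl, the 14 calls ranged from 1 (SCN3B, without Ctrl replicate 3) to 18 (without SHMO replicate 1), with 2 without SBMO replicate 2 and 6 without SBMO replicate 1. In SBMO against SHMO, the 3 calls became 1 with a mean of at least 5 TPM and 1 with only the 2 groups, and 2 to 3 with 1 pool left out. The treat test against a log2(FC) of 0.58 left 0 calls in each comparison. Of all genes it called 0.772% in SHMO, 1.24% in SBMO and 0.352% between the treatments. The causes were not tested, except that the filter at 5 TPM tests fewer genes. Calls over all genes moved as well. In SBMO against Ctrl the 3772 calls became 1303 without Ctrl replicate 3 and 937 without SBMO replicate 2. They were 2721 without SBMO replicate 1 and 4220 without SHMO replicate 1. In SHMO against Ctrl the 1695 calls ranged from 411 (without SHMO replicate 3) to 2542 (without SHMO replicate 1). In SBMO against SHMO the 871 calls ranged from 151 (without SBMO replicate 2) to 1255 (without SBMO replicate 3). Without further scaling, the median over all genes in SHMO was 0.11, and calls over all genes were 879 higher and 794 lower beside 682 and 1013. Same-numbered pools had correlated deviations from −0.26 to 0.152, beside −0.308 to 0.333 for pools of different numbers. A pairing by number was thus not seen, but with 3 pools per group this check cannot exclude it. The block gave 4, 11 and 3 calls.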

Other observations

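Markers of 2 further cell types were measured beside the channels. Of 6 tested hair cell genes, whose synapse uses L-type pores of the cacna1d kind, 1 was down-regulated in each treatment (median log2(FC) −0.12 in SHMO and −0.34 in SBMO), where 5.32% and 11.5% of all genes were down-regulated, so 1 of 6 is no result about the list. It was OTOF (ENSDARG00000020581), encoding otoferlin, the calcium sensor of hair cell release, at a mean of 9.52 TPM in Ctrl, 5.01 TPM in SHMO and 4.72 TPM in SBMO (limma adjusted p = 0.0123 and 0.00935 against Ctrl). The other OTOF gene, ENSDARG00000030832, did not fall. Its means were 10.03 TPM in Ctrl, 10.69 TPM in SHMO and 13.79 TPM in SBMO, and it was not called (log2(FC) 0.11 ± 0.34 and 0.58 ± 0.34, limma adjusted p = 0.854 and 0.231). Of 14 glia genes, 3 were up-regulated in SHMO, beside 3.58% of all genes (median 0.26). In SBMO 4 were up-regulated and 1 down-regulated, beside 8.31% and 11.5% of all genes (median 0.47).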
